A study of Rattus norvegicus with 24 samples.

Results

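The genes described are 23 cell adhesion genes of the rat spiral ganglion, chosen by symbol: 8 cadherins (Cdh2, Cdh6, Cdh7, Cdh8, Cdh13, Cdh19, Cdh20 and Cdh22), 6 protocadherins (Pcdh7, Pcdha4, Pcdhb12, Pcdhb15, Pcdhgb7 and Pcdhgc3), 3 contactins (Cntn1, Cntn3 and Cntn5), Ncam1 and Ncam2, 2 neurexins (Nrxn2 and Nrxn3) and 2 neuroligins (Nlgn2 and Nlgn3). They were drawn from the 5750 named genes of the whole-series expression table, each with 1 array row, and no Lrrtm gene is described. A further 25 rows of the same families lay outside that table, in the 2 tables of the separate array platforms, with mean log2 intensities of 4.09 to 7.72. The rows of the 23 genes had means of 7.80 to 12.46.

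The study profiled spiral ganglia of Sprague-Dawley rats of both sexes on 24 single-colour NimbleGen arrays. Deaf rats had received kanamycin, an aminoglycoside antibiotic toxic to cochlear hair cells, at 400 mg/kg by daily intraperitoneal injection from postnatal day 8 to 16, and hearing rats were littermates that were not injected. Ganglia were taken at postnatal day 60 (P60) or 32 (P32) and divided into a basal and an apical portion. This gave 8 groups of 3: deaf base, deaf apex, hearing base and hearing apex at P60, and the same 4 at P32. The labels name no transgene or deletion. Each replicate pooled 4 to 6 ganglia, so variation between single animals was averaged within a sample, and p-values measure the spread between pools of a group. The main fit took the basal and apical pools of a replicate number as independent, though their estimated correlation was 0.629. Replicate 1 of every group was in an 8-sample platform table and replicates 2 and 3 in a 16-sample table. The values are intensities already normalized by the authors, taken here as log2; each array row reports 1 gene on its own scale, so levels are compared between samples and not between genes.

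Cadherins are calcium-dependent adhesion proteins whose extracellular repeats bind those of a neighbouring cell, and whose intracellular tails, in the classical members, bind catenins and through them actin. Contactins and Ncam proteins are immunoglobulin-domain adhesion proteins of axons and glia, and contactins are held in the membrane by a lipid anchor. Neurexins lie mainly on the presynaptic side and bind neuroligins, and also Lrrtm proteins, on the postsynaptic side. In the cochlea the synapse in question joins inner hair cells, which kanamycin destroys, to the peripheral processes of spiral ganglion neurons, whose cell bodies, axons and satellite and Schwann cells make up the ganglion.

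The results turn on 4 genes, 1 for deafness (Cntn5) and 3 for position along the cochlea (Cntn1, Ncam2 and Cdh8). A link between upstream base composition and direction of change was not tested. The 250 bases before the annotated start of each gene are shown because these genes passed in a comparison. They are from RefSeq on the GRCr8 assembly, 5′ to 3′ on the gene's own strand, at chr8:15731958-15732207 on the minus strand for Cntn5, and on the plus strand at chr7:125252060-125252309 for Cntn1, chr11:33591573-33591822 for Ncam2 and chr19:5500216-5500465 for Cdh8. Capitals mark CG dinucleotides.
Cntn5: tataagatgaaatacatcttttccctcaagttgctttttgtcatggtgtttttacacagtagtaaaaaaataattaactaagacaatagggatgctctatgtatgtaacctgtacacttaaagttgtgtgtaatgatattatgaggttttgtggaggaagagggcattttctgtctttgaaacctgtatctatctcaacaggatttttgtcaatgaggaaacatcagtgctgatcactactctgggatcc
Cntn1: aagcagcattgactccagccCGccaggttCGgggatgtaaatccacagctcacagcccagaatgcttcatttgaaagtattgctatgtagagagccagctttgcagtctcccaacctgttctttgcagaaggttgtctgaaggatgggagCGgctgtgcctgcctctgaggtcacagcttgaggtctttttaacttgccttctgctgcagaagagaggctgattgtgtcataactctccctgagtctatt
Ncam2: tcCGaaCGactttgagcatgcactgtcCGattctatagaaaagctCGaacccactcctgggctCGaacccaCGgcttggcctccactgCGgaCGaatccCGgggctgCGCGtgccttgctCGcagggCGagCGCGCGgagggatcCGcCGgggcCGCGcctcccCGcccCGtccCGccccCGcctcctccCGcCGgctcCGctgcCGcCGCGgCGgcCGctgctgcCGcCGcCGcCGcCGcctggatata
Cdh8: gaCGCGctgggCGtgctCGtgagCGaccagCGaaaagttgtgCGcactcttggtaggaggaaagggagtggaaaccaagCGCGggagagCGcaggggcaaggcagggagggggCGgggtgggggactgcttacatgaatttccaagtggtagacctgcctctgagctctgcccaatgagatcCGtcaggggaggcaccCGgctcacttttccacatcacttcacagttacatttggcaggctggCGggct
The Cntn5 window held 0 CG dinucleotides and the Cntn1 window 3, below the median of 6 over 27457 promoters of the same length, whereas Cdh8 held 14 and Ncam2 held 37. GC content was 34.8% for Cntn5, 50% for Cntn1, 60.8% for Cdh8 and 73.2% for Ncam2. Of 5 motifs searched on both strands, none was found in these 4 windows. The AP-1 motif was spelled TGANTCA and is held by 6.36% of all promoters. The E-box was spelled CAGCTG and is held by 11.9%, and the motif bound by GATA factors was spelled AGATAA and is held by 10%. The motif of Sox factors, spelled ACAATG, is held by 10.9%, and the octamer, spelled ATGCAAAT, by 1.5%. This says only that these letters are not in these windows, and 17 of the 23 genes had a promoter entry.

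The samples had median intensities of 1997.4 to 2262.6, and no pair of samples was a copy of another, the highest correlation between samples being 0.981. P32 hearing apex replicate 1 stood apart from its group in the genes and markers given next, but not over all rows. Its mean correlation with its own group was 0.847, between the 0.825 and 0.87 of replicates 2 and 3. This sample had log2 intensities of 13.31 for Cntn1, 10.34 for Ncam2 and 9.25 for Cdh20. Replicates 2 and 3 had 11.39 and 12.32, 7.29 and 7.69, and 7.20 and 8.18 for the same genes. Its values of these genes resembled those of basal samples. For Ncam2 and Cdh20, however, replicate 1, alone on the 8-sample platform, was the highest in every other apical group too. Platform took 51.9% of the sum of squares of Ncam2 and 42.9% of that of Cdh20. In P32 hearing apex replicate 1 the summed level of 7 oligodendrocyte markers was 15.94 on the log2 scale, against 14.82 and 15.68 in the other 2. That of 8 macrophage markers was 16.63 against 15.20 and 15.18, and lay above the P32 hearing base range of 15.73 to 16.07. The base and apex differences of Cntn1, Ncam2 and Cdh20 in hearing rats, and the counts of calls, are also given without this sample. Neuronal markers were present in every sample, with summed log2 levels of 16.74 to 17.45 in the P60 deaf groups and 17.15 to 17.80 in the P60 hearing groups. In bulk tissue, fewer cells of a type and less RNA per cell cannot be told apart.

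Deaf and hearing ganglia were compared to find which adhesion genes differed after hair cells had been lost. At P60 the contactin Cntn5 was the 1 of 23 genes that passed the test, and it was 2.22-fold lower in deaf ganglia. Across all genes 1.34% passed in this comparison, 0.157% in the lower direction. Cntn5 encodes an axonal contactin that, in rodents, is expressed along the auditory pathway. Its log2 intensities at P60 were 9.62, 9.26 and 9.58 in deaf base and 10.39, 9.35 and 9.82 in deaf apex. They were 10.52, 10.56 and 10.62 in hearing base and 11.16, 11.07 and 11.01 in hearing apex. Every deaf sample lay below every hearing sample, and within the hearing group every apical value exceeded every basal one. The mean was 9.67 ± 0.40 in deaf and 10.82 ± 0.29 in hearing ganglia (SD, n = 6 each), a log2 difference of -1.15 ± 0.27 (SE, adjusted p = 0.0369, limma with Benjamini-Hochberg adjustment over all genes). Non-overlap with deaf lower was found for 0.296% of all genes.

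The Cntn5 call lay close to the threshold. Without any 1 of 11 of the 12 P60 samples the log2 difference stayed between -1.22 and -1.05 but the adjusted p was between 0.066 and 0.122, the exception being P60 deaf apex replicate 1 (adjusted p = 0.0457 without it). With the basal and apical samples of a replicate number treated as correlated (estimated correlation 0.629), the difference was -1.15 ± 0.37 with adjusted p = 0.51. The share of all genes called was then 0.0696%.

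Cell type markers moved with the same comparison. Of 8 macrophage markers tested, 5 were higher in P60 deaf ganglia with a median log2 difference of 1.17, and their summed log2 level was 16.44 to 16.75 in deaf base and 16.19 to 16.38 in deaf apex, against 15.53 to 16.13 in hearing base and 14.67 to 14.93 in hearing apex. Of 13 neuronal markers none passed, 1 lay above 0, and their median was -0.39. With portions as a random block, 4 of all 5750 genes and none of the 8 macrophage markers passed. The part of either cell type in the Cntn5 difference was not tested.

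At P32 Cntn5 was 10.30, 9.36 and 8.76 in deaf base and 10.57, 9.93 and 9.46 in deaf apex, against 10.48, 10.91 and 9.78 in hearing base and 9.77, 10.86 and 10.74 in hearing apex. Deaf values were the lower in 5 of 6 pairs of the same portion and replicate number, and the groups overlapped. The log2 difference of -0.69 ± 0.27 did not pass (adjusted p = 1). Without P32 hearing apex replicate 1, whose 9.77 was the lowest hearing value, it was -0.94 ± 0.24 with adjusted p = 0.0984. The change in the deafness difference between the ages was -0.46 ± 0.38 (adjusted p = 1), so a difference between P60 and P32 was not shown. None of the 23 genes passed at P32, where 0.0174% of all genes did, and 1 of 23 had an unadjusted p under 0.05, against 3.48% of all genes. Without P32 hearing apex replicate 1, none of the 23 passed and the share of all genes was 0.661% (38 genes).

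**Figure D1:**
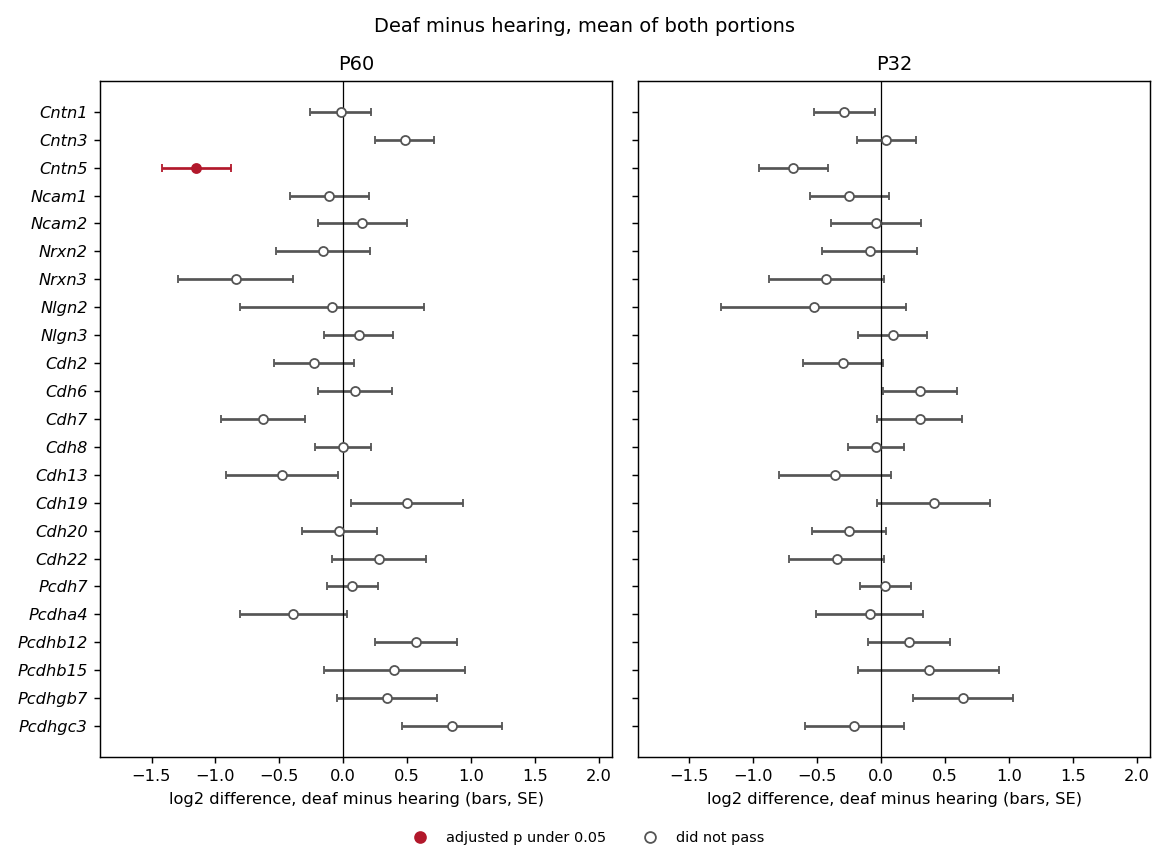
Log2 difference in intensity, deaf minus hearing, for each of the 23 genes at P60 (left) and P32 (right), with points for the estimates and bars for the SE; filled points passed the adjusted threshold of 0.05. Cntn5 lies at -1.15 at P60 and -0.69 at P32, and the other genes at P60 lie between -0.84 (Nrxn3) and 0.85 (Pcdhgc3).

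The 2 other contactins did not pass in deafness. Cntn3 had log2 intensities of 10.24 ± 0.31 in P60 deaf and 9.77 ± 0.34 in P60 hearing ganglia. The difference was 0.48 ± 0.23 (adjusted p = 0.428) with deaf above hearing in 6 of 6 pairs, and 0.04 ± 0.23 at P32. Pair counts of deaf against hearing at P60 are descriptions only. By the rule given under data processing, replicate numbers did not pair those samples. Cntn1, a contactin that forms the axonal part of the paranodal junction with Cntnap1, differed by -0.02 ± 0.24 at P60 and -0.29 ± 0.24 at P32. The immunoglobulin-domain genes Ncam1 and Ncam2 differed by -0.11 ± 0.31 and 0.15 ± 0.35 at P60.

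Among the synaptic partners, none of the neurexins and neuroligins described here passed. Nrxn3 had the lowest estimate, 7.58 ± 1.33 in P60 deaf and 8.42 ± 0.35 in P60 hearing ganglia, a difference of -0.84 ± 0.45 (adjusted p = 0.486). Its deaf values were 7.72, 10.01 and 6.69 in the base and 7.89, 6.73 and 6.44 in the apex, so the single sample P60 deaf base replicate 2 lay above every hearing value, which ranged from 8.06 to 8.95. The other 5 deaf values all lay below that hearing range. Leaving out 1 sample at a time moved the difference between -1.30 and -0.45, and it never passed. Nrxn2 differed by -0.16 ± 0.37. Nlgn2, the neuroligin of inhibitory synapses, differed by -0.09 ± 0.72 and Nlgn3 by 0.12 ± 0.27. The SE of Nlgn2 was the largest of the 23 genes.

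Among the cadherins at P60, Cdh7 was 11.05 ± 0.57 in deaf and 11.67 ± 0.37 in hearing ganglia, a difference of -0.63 ± 0.33 (adjusted p = 0.465), and lay lower in 5 of 6 pairs. At P32 its difference was 0.30 ± 0.33, and the change between ages of -0.93 ± 0.46 did not pass (adjusted p = 1). Cdh13, an atypical cadherin with a lipid anchor in place of an intracellular tail, was lower in 6 of 6 pairs at P60 with a difference of -0.48 ± 0.44 (adjusted p = 0.779), and both groups spanned wide ranges, 10.10 to 11.73 in deaf and 10.53 to 12.16 in hearing ganglia. Cdh19, a cadherin of Schwann cell precursors in rodents, was 10.58 ± 0.31 in deaf and 10.08 ± 0.42 in hearing ganglia (0.50 ± 0.44). N-cadherin, Cdh2, differed by -0.23 ± 0.31. The 4 remaining cadherins, Cdh6, Cdh8, Cdh20 and Cdh22, had differences of -0.03 to 0.28. At P32 the cadherin differences ran from -0.36 (Cdh13) to 0.41 (Cdh19) and none passed.

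No protocadherin passed in deafness, and 5 of 6 had an estimate above 0 at P60. Pcdhgc3 was 9.64 ± 0.67 in deaf and 8.80 ± 0.84 in hearing ganglia (0.85 ± 0.39, adjusted p = 0.385). Its deaf values were 9.71, 9.98 and 9.94 in the base and 9.11, 10.50 and 8.63 in the apex, against 9.97, 7.84 and 8.92 in hearing base and 9.56, 8.16 and 8.33 in hearing apex. In each portion the deaf values of replicates 2 and 3 lay above both hearing values of those numbers, while in replicate 1 the deaf value was the lower. At P32 the difference was -0.21 ± 0.39. Pcdhb12 was above hearing in 6 of 6 pairs at P60 (0.57 ± 0.32, adjusted p = 0.498), and Pcdhgb7 in 6 of 6 pairs at P32 (0.64 ± 0.39, adjusted p = 1). Genes of the Pcdha cluster share their 3′ exons, as do those of the Pcdhg cluster, and probe positions were not used here, so signal from neighbouring genes of a cluster cannot be told apart from that of Pcdha4, Pcdhgb7 or Pcdhgc3.

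Over all 23 genes the median log2 difference of deaf against hearing ganglia was 0 at P60 and -0.09 at P32, against 0.04 and -0.02 over all genes. At P60 11 of 23 lay above 0, against 54.6% of all genes, and at P32 9 of 23, against 44.8%. At P60 2 of 23 genes had an unadjusted p under 0.05, against 12.3% of all genes.

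**Figure D2:**
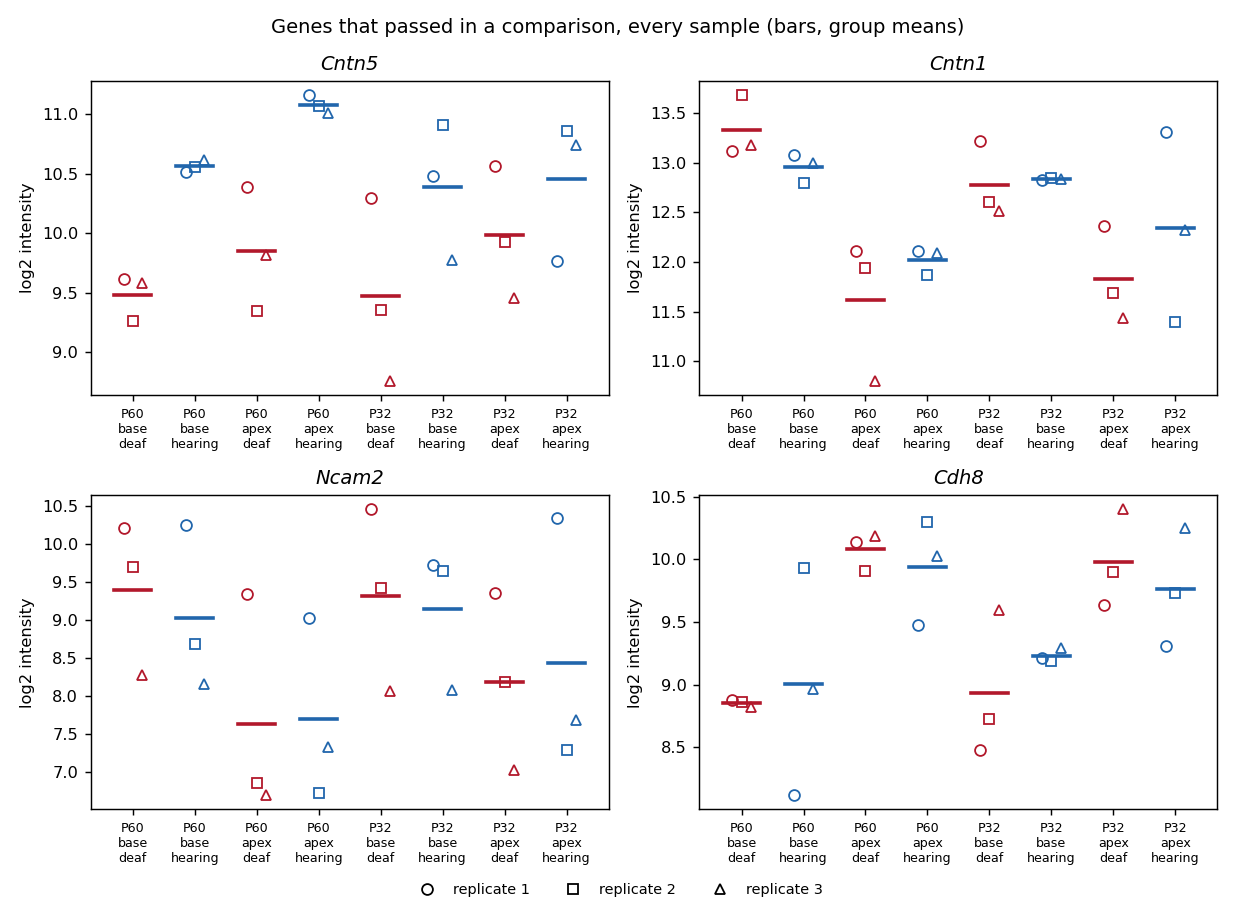
Log2 intensity (vertical axis) of the 4 genes that passed in a comparison, for every sample, with deaf groups in red, hearing groups in blue, a symbol per replicate number and bars for group means. The 6 P60 deaf samples of Cntn5 lie between 9.26 and 10.39, below all 6 P60 hearing samples, and Cntn1 and Cdh8 separate deaf base from deaf apex in opposite directions.

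Base and apex were compared within each condition, since the cochlea codes high sound frequencies at its base and low ones at its apex. In deaf rats 3 of 23 genes passed: Cntn1 and Ncam2 were higher in the base, by 2.51-fold and 2.72-fold, and Cdh8 was 2.20-fold lower. Across all genes 2.02% passed in this comparison, 1.86% higher and 0.157% lower in the base. Hearing rats had the same direction for all 3 with smaller estimates, and 0 of 23 passed, against 1.5% of all genes. This was 86 genes, and 142 with the replicate number as a block. Without P32 hearing apex replicate 1, 1 of 23 passed and the share of all genes was 5.51% (317 genes). In hearing rats 3 of 23 had an unadjusted p under 0.05, against 9.44% of all genes, and 5 of 23 in deaf rats, against 10.3%.

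Cntn1 in deaf rats was 13.12, 13.68 and 13.18 in the P60 base and 12.11, 11.94 and 10.80 in the P60 apex. At P32 it was 13.22, 12.60 and 12.51 in the base and 12.36, 11.69 and 11.44 in the apex. Every basal sample lay above every apical one. The mean was 13.05 ± 0.43 in the base and 11.72 ± 0.55 in the apex (SD, n = 6 each), a log2 difference of 1.33 ± 0.24 (adjusted p = 0.00505), and 1.57% of all genes were higher without overlap.

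In hearing rats Cntn1 varied little in the base, at 13.08, 12.80 and 13.00 at P60 and 12.83, 12.85 and 12.84 at P32. The apex had 12.11, 11.87 and 12.09 at P60 and 13.31, 11.39 and 12.32 at P32. The base was higher in 5 of 6 pairs, the exception being the pair with P32 hearing apex replicate 1. The difference was 0.72 ± 0.24 (adjusted p = 0.208), and 0.91 ± 0.23 without that sample (adjusted p = 0.0279). The deaf and hearing differences between portions were not shown to differ (0.61 ± 0.35, adjusted p = 1).

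Ncam2, a homophilic adhesion protein best known from olfactory axons, was 10.22, 9.70 and 8.28 in the P60 deaf base and 9.34, 6.86 and 6.70 in the P60 deaf apex. At P32 deaf base had 10.46, 9.42 and 8.07 and deaf apex 9.36, 8.19 and 7.03. Basal values were higher in 6 of 6 pairs but the groups overlapped, since replicate 1 was the highest of its group in every deaf group. Pair counts of base against apex in deaf rats are also descriptions only, since replicate numbers did not pair those samples by the rule used. The difference was 1.44 ± 0.35 (adjusted p = 0.0374). This call was lost, with adjusted p of 0.0502 to 0.131 and differences of 1.21 to 1.47, without P32 deaf apex replicate 1 or 3, P32 deaf base replicate 1 or 2, P60 deaf apex replicate 2 or 3, P60 deaf base replicate 2, P60 hearing apex replicate 1, or P60 hearing base replicate 1 or 3. In hearing rats Ncam2 was 10.25, 8.69 and 8.16 in the P60 base and 9.03, 6.73 and 7.33 in the P60 apex, and 9.73, 9.65 and 8.08 in the P32 base and 10.34, 7.29 and 7.69 in the P32 apex. The difference was 1.03 ± 0.35 (adjusted p = 0.216), and 1.22 without P32 hearing apex replicate 1 (adjusted p = 0.0626).

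Cdh8, a type II cadherin of neurons, ran the other way. In deaf rats it was 8.88, 8.86 and 8.82 in the P60 base and 10.14, 9.91 and 10.19 in the P60 apex, and 8.48, 8.73 and 9.60 in the P32 base and 9.64, 9.90 and 10.40 in the P32 apex. Every basal sample lay below every apical one, and the 3 P60 basal values were nearly the same. The mean was 8.89 ± 0.38 in the base and 10.03 ± 0.27 in the apex (SD, n = 6 each; log2 difference -1.14 ± 0.22, adjusted p = 0.00908), and 0.209% of all genes were lower without overlap.

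In hearing rats Cdh8 was 8.12, 9.93 and 8.97 in the P60 base and 9.48, 10.30 and 10.03 in the P60 apex, and 9.21, 9.19 and 9.29 in the P32 base and 9.31, 9.73 and 10.25 in the P32 apex. The base was lower in 6 of 6 pairs and the groups overlapped. The difference of -0.73 ± 0.22 did not pass (adjusted p = 0.139). Without P60 hearing base replicate 2, the highest basal value, it was -0.93 with adjusted p = 0.0339. Deaf and hearing differences between portions were not shown to differ for Cdh8 (-0.41 ± 0.32, adjusted p = 1).

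**Figure D3:**
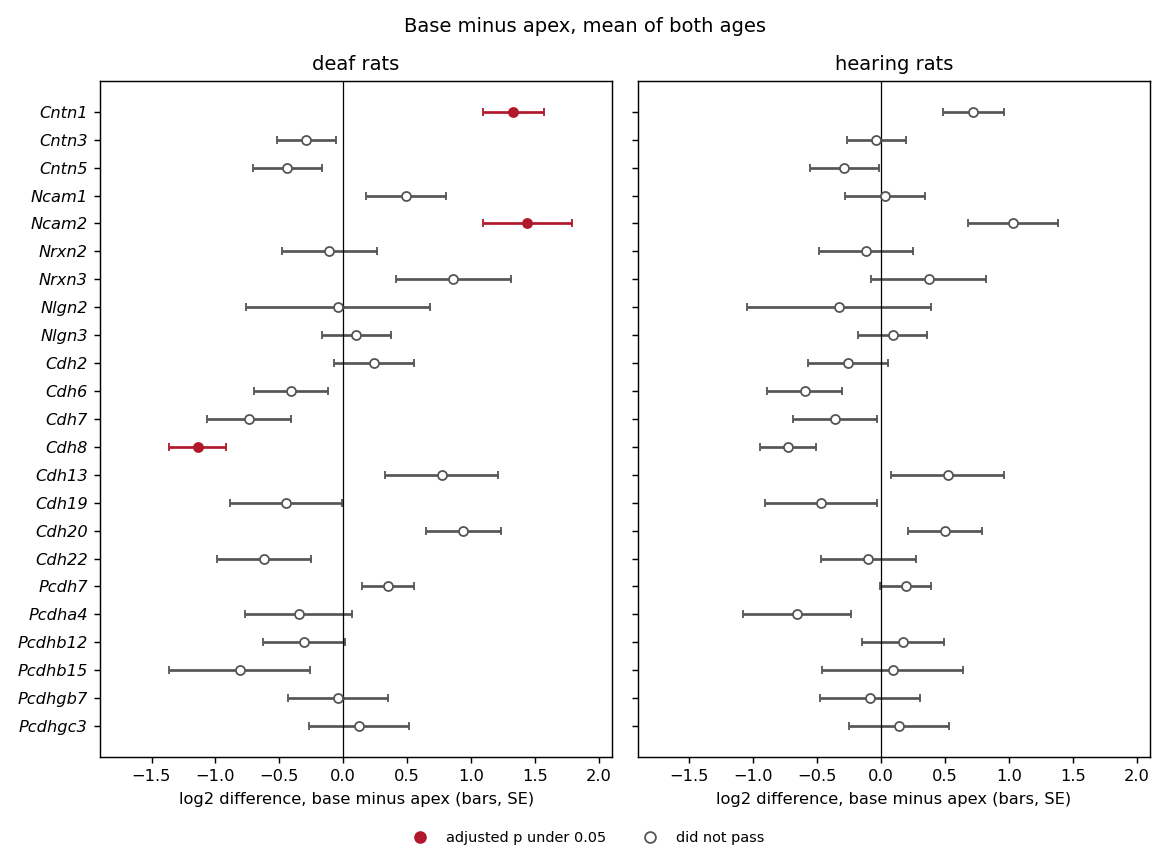
Log2 difference in intensity, base minus apex, for each of the 23 genes in deaf (left) and hearing (right) rats, with points for the estimates and bars for the SE; filled points passed the adjusted threshold of 0.05. Cntn1 (1.33), Ncam2 (1.44) and Cdh8 (-1.14) passed in deaf rats and lie on the same side of 0 in hearing rats, at 0.72, 1.03 and -0.73.

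Some glial markers differed between the portions too. None of 11 Schwann cell markers passed in the main fit, with medians of -0.08 in deaf and 0.01 in hearing rats. Of 7 oligodendrocyte markers tested, 3 were higher in the deaf base and 4 in the hearing base, all 7 lay above 0 in both, and their median log2 differences were 1.39 and 1.12. Their summed log2 level was 16.18 to 16.27 in P60 deaf base and 14.44 to 15.36 in P60 deaf apex, and 15.82 to 16.51 in P32 deaf base and 15.02 to 15.22 in P32 deaf apex. In hearing rats it was 15.89 to 16.31 in the P60 base and 14.50 to 14.87 in the P60 apex, and 15.89 to 16.25 in the P32 base and 14.82 to 15.94 in the P32 apex. Of 7 satellite glia and astrocyte markers 2 were higher in the base in each condition, with medians of 1.06 in deaf and 0.46 in hearing rats. With portions as a random block 6 oligodendrocyte markers were higher in the deaf base and 5 in the hearing base. In the hearing base 6 of 8 macrophage markers were also higher. That fit called 10.2% of all genes in deaf and 9.37% in hearing rats. Of 13 neuronal markers, 2 were then lower in the deaf base, and 1 was higher and 1 lower in the hearing base. None of these 13 passed without that block, and their medians were -0.26 in deaf and -0.29 in hearing rats. The part of these cells in the Cntn1, Ncam2 and Cdh8 differences was not tested.

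None of the other cadherins passed between the portions. Cdh20, a type II cadherin, was 8.61 ± 0.87 in deaf base and 7.67 ± 0.66 in deaf apex (0.94 ± 0.29, adjusted p = 0.131), and 8.53 ± 0.76 in hearing base and 8.03 ± 0.74 in hearing apex (0.50 ± 0.29, adjusted p = 0.706, and 0.59 ± 0.31 with adjusted p = 0.411 without P32 hearing apex replicate 1). Cdh7 was lower in the deaf base in 6 of 6 pairs (-0.74 ± 0.33, adjusted p = 0.405) and in the hearing base in 5 of 6 (-0.36 ± 0.33). Cdh13 was higher in the base in 6 of 6 pairs of each condition, by 0.77 ± 0.44 in deaf and 0.52 ± 0.44 in hearing rats (adjusted p = 0.619 and 0.923). Cdh6 was lower in the hearing base in 6 of 6 pairs (-0.60 ± 0.29, adjusted p = 0.545) and by -0.41 ± 0.29 in the deaf base.

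Among the remaining families, Nrxn3 was higher in the base by 0.86 ± 0.45 in deaf rats (adjusted p = 0.557) and 0.37 ± 0.45 in hearing rats, in 5 and 6 of 6 pairs. The deaf difference leaned on P60 deaf base replicate 2, at 10.01, and was 0.40 ± 0.36 without it (adjusted p = 1). Nrxn2 differed by -0.11 ± 0.37 in deaf rats. Pcdha4 was lower in the hearing base in 6 of 6 pairs (-0.66 ± 0.42, adjusted p = 0.784). Cntn5, the gene lower in P60 deafness, was also lower in the deaf base than in the deaf apex in 6 of 6 pairs (-0.44 ± 0.27, adjusted p = 0.671). Nlgn2 and Nlgn3 differed by -0.04 ± 0.72 and 0.10 ± 0.27 in deaf rats. The median over the 23 genes was -0.04 in both deaf and hearing rats, and -0.04 in both over all genes.

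The count of portion calls rested on how the 2 portions of a replicate number were treated. With portions of 1 replicate number as a random block, 6 of 23 genes passed in deaf rats, Cdh20 (adjusted p = 0.00772), Cdh13 (0.0291) and Cdh7 (0.0411) beside the 3 above, while the share of all genes called was 10.2%, against 2.02% before. In hearing rats 4 then passed: Cdh8 (0.00293), Cntn1 (0.0207), Ncam2 (0.0289) and Cdh6 (0.0312), with 9.37% of all genes called, against 1.5% before. With each age, condition and replicate number as a fixed block, 5 passed in deaf rats (Cntn1, Ncam2, Cdh8, Cdh13 and Cdh20) and 4 in hearing rats, Pcdha4 (adjusted p = 0.0135), Cdh8 (0.0151), Cdh13 (0.0155) and Cdh6 (0.0345). This fit called 7.18% of all genes in deaf and 7.86% in hearing rats. On the 16-sample platform alone, where 0.504% of all genes were called, none passed in deaf rats, and Cntn1 was 1.52 (adjusted p = 0.0528), Cdh8 -1.10 (0.172) and Ncam2 1.67 (0.259).

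Age was compared within each condition to follow maturation between P32 and P60, and no gene of the 23 passed. Across all genes 0.104% passed in deaf and 0.087% in hearing rats (6 and 5 genes, and 14 and 9 with the replicate number as a block). At an unadjusted p under 0.05, where no gene of the 23 fell in either condition, 4.92% and 7.25% did. In hearing rats Cdh7 was higher at P60 in 6 of 6 pairs, 11.67 ± 0.37 at P60 and 11.04 ± 0.62 at P32 (0.63 ± 0.33, adjusted p = 0.643). Pcdhgb7 was also higher at P60 in 6 of 6 pairs (0.62 ± 0.39, adjusted p = 0.662). Cdh19 differed by 0.78 ± 0.44 in deaf and 0.69 ± 0.44 in hearing rats (adjusted p = 0.875 and 0.664), with deaf values of 10.12 to 10.87 at P60 and 7.59 to 11.21 at P32. Cdh2 differed by 0.47 ± 0.31 in deaf and 0.40 ± 0.31 in hearing rats, and Nlgn3 by 0.41 ± 0.27 in deaf and 0.37 ± 0.27 in hearing rats. In deaf rats Pcdha4 was 9.84 ± 0.50 at P60 and 10.65 ± 1.15 at P32 (-0.81 ± 0.42, adjusted p = 0.875), and the 2 deaf P32 samples of replicate 2, at 11.64 and 12.49, were the highest. Cntn5 was -0.06 ± 0.27 in deaf rats and 0.40 ± 0.27 in hearing rats. The age, condition and portion comparisons use the same 24 samples and are not independent of each other. Neither the change of the deafness difference with age nor its change with portion passed for any of the 23 genes or of all 5750, with unadjusted p under 0.05 for 2.07% and 0.504% of all genes and for none of the 23.

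**Figure D4:**
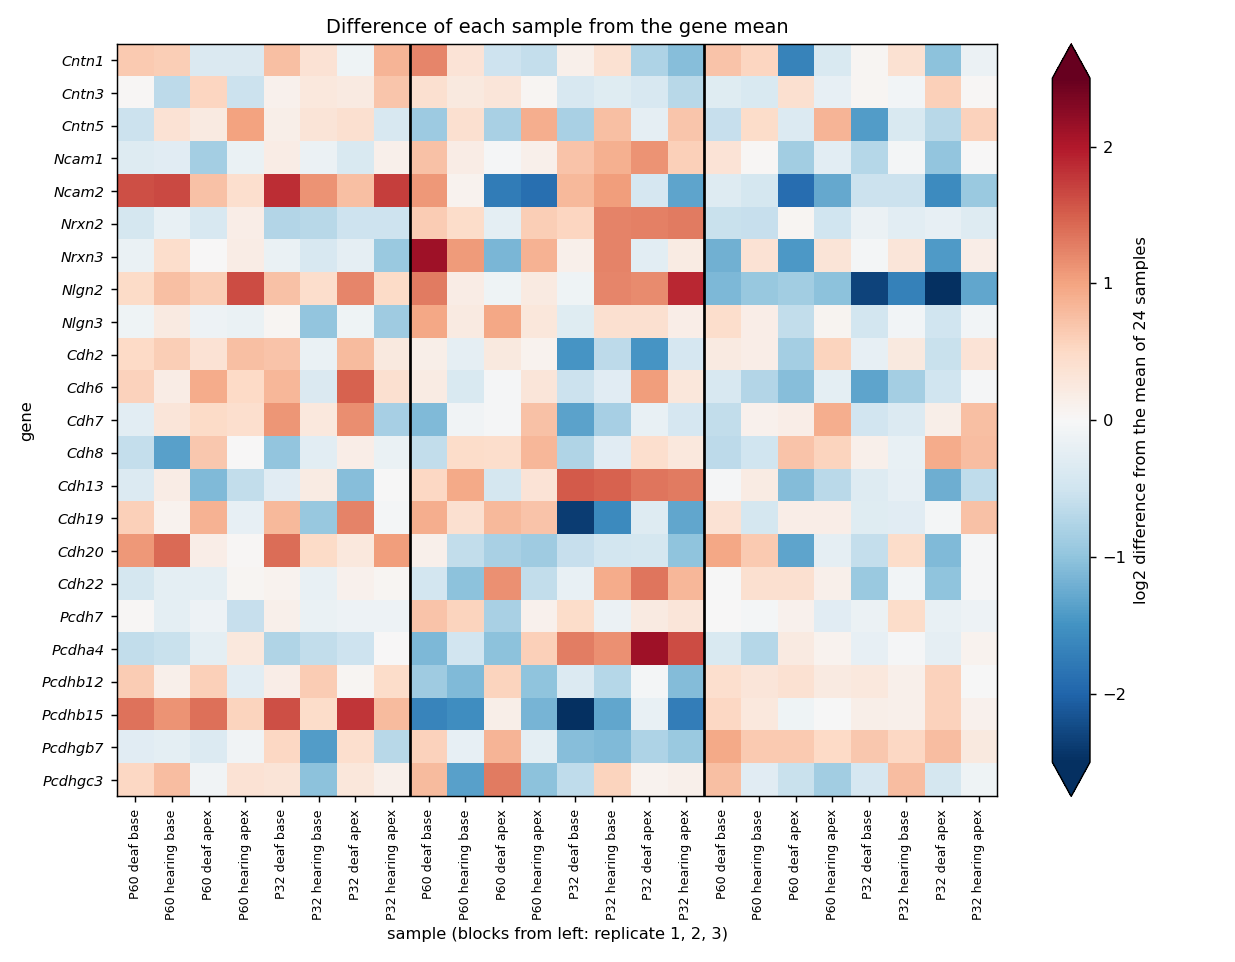
Log2 intensity of each of the 23 genes minus its own mean over the 24 samples (colour scale), with samples as columns in 3 blocks, replicate 1 on the left and replicate 3 on the right. The 8 replicate 3 samples of Nlgn2, at 5.85 to 7.86, are the lowest of their row, and Pcdhb15 has its lowest value, 6.09, in the replicate 2 block.

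The replicate number accounted for more of the variation than any study factor in 16 of the 23 genes, condition and portion each being first in 3 and age in 1. It has 3 levels, against 2 for each study factor. Its median share of the sum of squares was 34.9%, with a range of 3.40% to 75.4%, and 40.1% over all genes. Nlgn2 had a share of 75.4%: replicate 3 samples ranged from 5.85 to 7.86, and all other samples from 8.61 to 10.60. Pcdhb15 had 72.2%, with replicate 2 at 6.09 to 9.49 and Nrxn2 69.1%. The median share of portion was 7.59%, against 3.14% over all genes, that of condition 2.20% against 2.11%, and that of age 1.64% against 3.41%. Portion took 57.5% for Cdh8 and 54.4% for Cntn1, condition 49.1% for Cntn5, and age at most 18.6%, for Cdh19. These shares are a description and were not tested.

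**Figure D5:**
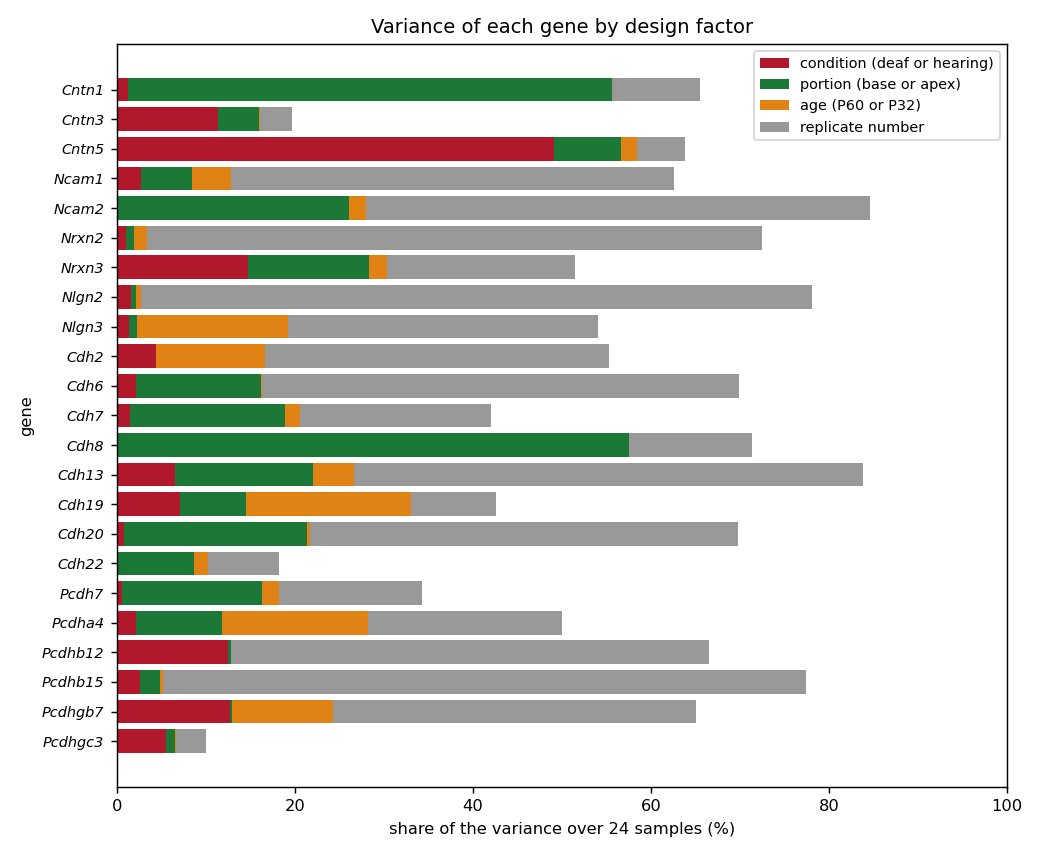
Share of each gene's sum of squares over the 24 samples, in percent, taken by condition, portion, age and replicate number as coloured segments; the rest of each row is not taken by these 4. Replicate number is the widest segment for 16 of 23 genes, and portion or condition for Cdh8 (57.5%), Cntn1 (54.4%) and Cntn5 (49.1%).

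Further genes of the adhesion pathways were described by lists. Of 10 catenin genes, which link cadherin tails to actin, 3 were tested and none passed in any comparison, with a median of 0.66 at P60 in deaf against hearing ganglia. Of 12 genes of the L1 family and contactin partners, 7 were tested, and at P60 Nrcam, an axonal L1-family protein that binds contactins, rose in deaf ganglia. It was 12.34 ± 0.20 in deaf and 11.56 ± 0.13 in hearing ganglia (0.78 ± 0.16, adjusted p = 0.0163). No value of the deaf group, 12.04 to 12.54, overlapped the hearing values of 11.38 to 11.74, and 1.17% of all genes were higher without overlap. With portions as a random block Nrcam did not pass (adjusted p = 0.382). In that fit 2 of the 7 genes were higher and 1 lower in the base than in the apex, in deaf and in hearing rats. Across all genes it called 10.2% between the portions in deaf and 9.37% in hearing rats. The list shares the myelin gene Mag with the oligodendrocyte markers. Of 52 other synaptic adhesion genes, 23 were tested. With portions as a random block 1 was higher and 1 lower in the deaf base, and 1 was lower in the hearing base. Without that block none of them passed in any comparison. Their median was -0.19 at P60 and -0.24 at P32 in deaf against hearing ganglia, and -0.09 in deaf and -0.28 in hearing rats for base against apex. Mdga2, which binds neuroligins and blocks neurexins from them, was named after its values were seen and had -0.73 ± 0.26 at P60 (adjusted p = 0.218).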

How the data were processed

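Single-colour NimbleGen arrays measured RNA of 24 pooled spiral ganglion samples (8 groups of 3). The authors deposited normalized intensity values on a linear scale; RMA is the tool that the submitters' processing notes name, with no version, and technical replicates were averaged per the labels. No source used here states how the whole-series table of 14138 rows was chosen from the 26419 rows of the platform tables. The tables differed by at most 0.002 intensity units where they overlap. Rows were named by accession through a RefSeq table (GRCr8, names only): 5828 rows had a symbol, 5799 of 6033 curated and 29 of 8105 predicted accessions, and 8310 stayed unnamed, so genes of these families may be among them. The brightest row stood for each of 5750 genes.

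Log2 intensities were fitted with limma 3.58.1 in R 4.3.3 (8 group means, platform as an additive term, 15 residual degrees of freedom, two-sided, Benjamini-Hochberg adjustment over all 5750 genes, threshold 0.05), after the procedure was tested on simulated data. Array intensities carry no read depth, so the number of arrays limits the precision; an exact permutation test of 3 against 3 samples cannot give p below 0.1. Differences are means over the 2 portions or ages. Genes were named when they passed, when they were among the 6 smallest unadjusted p-values of a comparison or the 6 brightest, or were the brightest or dimmest of a family; other values complete the families. The genes and lists were chosen with earlier results of these data known. Promoters come from RefSeq.

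Samples sharing a replicate number deviated together with correlations of -0.086 to 0.919, and 34 of 36 exceeded 0.1. The rule was that all must exceed 0.1. By it, numbers paired the samples for deaf against hearing at P32, base against apex in hearing rats and both age comparisons. They did not for deaf against hearing at P60 or base against apex in deaf rats, where pair counts only describe the values. The correlations that fell short both involved P60 deaf apex replicate 2. They were -0.086 with P60 hearing apex replicate 2 and -0.023 with P60 deaf base replicate 2. Within the same comparisons, the correlations were 0.804 to 0.839 in the P60 base and 0.852 to 0.919 in P32 deaf rats. The share of all genes with every pair in the same direction was not computed. Whether the portions of a number came from the same rats is not stated in the labels. Alternatives covered the platform term, replicate and portion blocks, the 16-sample platform alone, all rows, an offset of 64, leaving out the dimmest 25% of genes, added quantile normalization, a variance trend and each sample left out. Replicate blocks within age, replicate blocks within age and condition, all rows of both platform tables, and marker lists with portions as a random block were chosen after seeing the data. Some genes are not reported here.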

Additional observations from a re-analysis of the deposited data

Results flagged for a closer look

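A row of the cadherin-related gene Cdhr5, a brush-border cadherin of gut and kidney epithelium, was higher in P60 deaf than in P60 hearing ganglia by 0.91 on the log2 scale (SE 0.18, adjusted p = 0.0303, limma over all rows of both platform tables). It was singled out because it lies outside the whole-series table that the comparisons used, as the 1 of 25 such rows of these families that passed. Over all 26419 rows of that fit 91 were called, 0.344%. Its log2 intensity was 5.71 ± 0.39 in P60 deaf ganglia, with a range of 5.07 to 6.06, and 4.80 ± 0.24 in P60 hearing ganglia, with a range of 4.52 to 5.06 (SD, n = 6 each). At P32 it was 5.34 ± 0.38 in deaf and 4.94 ± 0.20 in hearing ganglia. The signal of this row was low: its mean of 5.20 over all samples lay below 9.85, the lower quartile of the named genes. The row was not tested with portions as a random block.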

How the results depend on the processing

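The 1 call of deaf against hearing at P60, Cntn5, kept its direction under every alternative run. The count was 0 without a platform term (adjusted p = 0.0609), with portions as a random block (0.51), on the 16-sample platform alone (-1.31, 0.0868), with all rows of the table (0.0573) and with all rows of both platform tables (0.0823), and 0 to 1 when single samples were left out. Over all genes the count of 77 became 36 without a platform term, 178 with the replicate block, 4 with the portion block, 14 on the 16-sample platform, 171 without P32 hearing apex replicate 1 and 271 with replicate blocks within age. The replicate block, which replaces platform by replicate number, changed no count of calls among the 23 genes: 1 at P60, 3 for base against apex in deaf rats and 0 elsewhere, with Cntn5 at adjusted p = 0.0274.

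For base against apex in hearing rats the count of 0 became 4 with portions as a random block (all genes: 86 became 539), 1 with replicate blocks within age (Cdh13; 207), 4 with replicate blocks within age and condition (452), and 0 to 1 with single samples left out. In deaf rats the count of 3 became 6 with portions as a random block (all genes: 116 became 588), 0 on the 16-sample platform alone (29), 1 with the dimmest 25% of genes left out (Cdh8 and Ncam2 were then not tested), 5 with replicate blocks within age and condition (413), and 2 to 3 with single samples left out. Ncam2 also lost its call without a platform term (adjusted p = 0.595), with all rows (0.0558), with all rows of both platform tables (0.0605) and with quantile normalization (0.105). Counts of the other 5 comparisons stayed at 0 under all alternatives.

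Direction turned for 3 differences that did not pass: Cdh6, deaf against hearing at P32, was -0.11 on the 16-sample platform; Pcdha4, P60 against P32 in deaf rats, was 0.03 with replicate blocks within age; and Pcdhb12, the change of the deafness difference with age, was -0.03 on the 16-sample platform. The causes were not tested. Among differences of named genes, leaving out single samples and the settings chosen after seeing the data apart, 389 kept direction and side of the threshold, 10 no longer passed and 6 newly passed.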

Other observations

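Among the 25 rows outside the whole-series table, the contactin Cntn6, named after its values were seen, had the widest differences between portions. It was higher in the base by 1.98 ± 0.58 on the log2 scale in deaf rats (adjusted p = 0.144) and by 2.18 ± 0.58 in hearing rats (adjusted p = 0.142), and did not pass in either. Cntnap5b, a contactin-associated protein gene, had -0.97 ± 0.39 in deaf and -0.90 ± 0.39 in hearing rats (adjusted p = 0.399 and 0.628).

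Marker lists of other cells were measured on the same arrays. Of 11 Schwann cell markers, 2 were higher in the deaf base and 1 in the hearing base with portions as a random block. For base against apex that fit called 10.2% of all genes in deaf and 9.37% in hearing rats. Without that block no Schwann cell marker passed in any comparison. The list medians were -0.02 for deaf against hearing at P60, and -0.08 and 0.01 for base against apex in deaf and hearing rats. Single markers that passed were Myl1 of skeletal muscle, lower in P60 deaf ganglia (-2.45 ± 0.37, adjusted p = 0.00188), Krt8 of epithelium and Bglap of bone, higher in the hearing base (1.13 ± 0.27 and 1.59 ± 0.36, adjusted p = 0.0419 and 0.0318), and Alas2 of blood, lower at P60 in deaf rats (-1.36 ± 0.25, adjusted p = 0.0371). In the hearing base 5 of 5 epithelial markers lay above 0 (median 0.43), but 3 of 6 bone and cartilage markers did (median -0.01). For deaf against hearing at P60, 1 of 4 muscle markers lay above 0 (median -0.52). For P60 against P32 in deaf rats, 0 of 4 blood and marrow markers did (median -1.32). With portions as a random block Myl1 (adjusted p = 0.311) and Alas2 (0.835) no longer passed. In that fit 1 of 5 epithelial, 1 of 6 bone and 1 of 4 muscle markers were higher in the deaf base, and 3, 2 and 1 in the hearing base. Ocm, the oncomodulin of outer hair cells, was 6.02 ± 1.55 in P60 deaf and 9.62 ± 2.34 in P60 hearing ganglia (-3.60 with an SE of 1, adjusted p = 0.0913), and 5.86 ± 1.74 in P32 deaf and 10.55 ± 2.22 in P32 hearing ganglia (-4.69 with an SE of 1, adjusted p = 0.162), and did not pass. Ocm had the lowest difference of the 4 hair cell markers tested at each age. Of these 4 markers, 2 lay above 0 at P60 and 2 at P32, with list medians of 0 and -0.06. None of the 4 hair cell, 4 fibroblast or 5 endothelial markers passed in any comparison without the portion block. With it 2 hair cell markers were lower in the deaf base and 3 fibroblast markers were higher in the hearing base.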
